A study of Mus musculus with 6 samples.

Results

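The 63 genes described here are those whose symbol begins with Rpl or Rps and continues with a digit, a or p, the names of the proteins of the cytosolic ribosome. They were taken from the 19938 genes that had a probe set paired with 1 gene symbol, and the brightest such probe set over the 6 arrays stood for each gene. Kinases of the Rps6k family (6 genes) and symbols marked as pseudogenes (2 genes) were left out. Of the 63, 54 are core ribosomal proteins, 33 of the large and 21 of the small subunit. A further 7 are paralogues of core proteins (Rpl3l, Rpl7l1, Rpl10l, Rpl32l, Rpl39l, Rps4l and Rps27l), and Rps19bp1 and Rps23rg1 met the rule by name without encoding a core protein. Rps19bp1 encodes a SIRT1 regulator and Rps23rg1 is a retrogene derived from Rps23. Another 20 symbols of this type, Rpl3, Rpl11, Rpl22l1, Rpl39 and Rps27 among them, were paired only with probe sets of several symbols and were not analysed by name.

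Signal was measured in thymocytes at the double-positive (DP) stage, when developing T cells carry both CD4 and CD8. The Hdac3 knockout (KO) group was set against the wild-type (WT) group, each with 3 Affymetrix whole-transcript arrays of C57BL/6 mice aged 3 weeks and no treatment. Series text names the knockout LCK:Hdac3, after Lck, a kinase gene whose proximal promoter is active in immature thymocytes, and Hdac3, the histone deacetylase of the NCoR and SMRT corepressor complexes. RNA of 2 mice of each genotype was pooled. The sources used here do not tie mice to arrays, so p-values measure only array-to-array spread, which may be technical in part. Neither the deleted stretch of Hdac3 nor a Cre line is named in them. In such bulk RNA fewer cells of a type and less RNA per cell cannot be told apart.

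A ribosome is built from a small subunit, which reads the messenger RNA, and a large subunit, which joins the amino acids. Each core protein is present in a single copy in most ribosomes, except the acidic proteins of the stalk. Most ribosomal protein messenger RNAs begin with a run of pyrimidines, the 5′ terminal oligopyrimidine (TOP) tract, through which mTORC1 and LARP1 control their translation. Thymocytes are sensitive to the loss of single ribosomal proteins. In mice, loss of Rpl22 blocks alpha-beta T cell development through p53.

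The tract is a feature that the naming rule did not use. RefSeq start-site windows of assembly GRCm38.p6, of 250 bases before and 50 after each annotated start, were matched by symbol to 43 of the 54 core genes. A run of at least 8 C or T on the sense strand, reaching into the stretch from 30 bases before to 50 after an annotated start, was present in 33 of these 43 genes (76.7%) and in 34.9% of all 27025 genes with an entry. The hexamer CTTCCG, the core of an ETS factor motif, was found on either strand in the 300 bases of 31 of the 43 (72.1%) and in 18.8% of all genes. Both were counted at any annotated start of a gene, so genes with more starts had more chances. A run counted in this way need not be a TOP tract. The windows below show the run of the 3 bright genes Rps6, Rpl4 and Rpl28, and of the 4 genes whose differences the later results turn on. Capitals mark the longest run of pyrimidines, and each stretch is 30 bases of the sense strand.
Rps6 (chr4:86857349-86857378, minus strand): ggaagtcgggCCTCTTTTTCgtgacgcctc
Rpl4 (chr9:64173405-64173434, plus strand): gagcgtggCCTTCTCCTCTCCCCgtcatgg
Rpl28 (chr7:4792952-4792981, plus strand): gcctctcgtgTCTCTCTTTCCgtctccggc
Rpl12 (chr2:32961732-32961761, plus strand): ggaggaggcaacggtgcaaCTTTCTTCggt
Rps15a (chr7:118116143-118116172, minus strand): gcccggcccaCTCTCTTTCTgccatcttcc
Rps25 (chr9:44407684-44407713, plus strand): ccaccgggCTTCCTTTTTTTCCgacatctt
Rps27l (chr9:66946053-66946082, plus strand): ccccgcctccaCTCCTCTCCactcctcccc
The run began 1 base before the annotated start in Rps6 and 3 bases before it in Rpl28, and lay 26 bases after it in Rpl4. In Rpl12 it lay 39 bases after the start. The run began 15 bases before the start in Rps15a and 22 before it in Rps25 and in the paralogue Rps27l, with lengths of 10, 14 and 9. In 5 of the 7 genes the run therefore did not cover the annotated first base. No link between a run and a difference was tested.

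Hdac3 itself was checked first. It fell on every KO array, with log2 signals of 8.28, 8.32 and 8.32 against 9.40, 9.42 and 9.44 on WT arrays (limma adjusted p = 3.6e-04), a KO signal of 46.2% of WT. DP genes were bright in both genotypes: Cd4, Cd8a, Cd8b1, Rag1 and Rag2 had mean signals of 10.01 to 12.98 over the 6 arrays. KO arrays had narrower signal distributions, with interquartile ranges of 3.06 to 3.25 against 3.29 to 3.49 on WT arrays. The 14 neutrophil markers summed to 347, 1091 and 359 on the linear scale on KO arrays 1 to 3, against 312 to 348 on WT arrays, so KO array 2 stood apart.

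No ribosomal protein gene passed the test. Of the 63 genes, 0 were higher and 0 lower in KO at a Benjamini-Hochberg adjusted p under 0.05 over all 23410 probe sets (limma), where 5.79% of all probe sets were called, 1.75% higher and 4.04% lower. At an unadjusted p under 0.05 there were 4 genes, Rpl39l and Rps23rg1 with positive and Rpl12 and Rps27l with negative differences. KO and WT arrays were fully separated in 15 of the 63 genes (23.8%), against 30% of all probe sets. In 10 genes (16.5% of all probe sets) every KO array was below the WT arrays and in 5 (13.5% of all probe sets) every KO array was above them. The KO minus WT differences of the 54 core genes lay between -0.34 and 0.24 on the log2 scale with a median of -0.08, and 51 of them were within 0.2 of 0, or 94.4%, against 61.0% of all genes. For 51 of the 54, the 95% interval of the difference also lay within 0.5 of 0. In simulated data of this size the fit recovered 1.80% of changes of 0.25, 49.4% of changes of 0.5 and 99.6% of changes of 1. The simulation changed fewer probe sets than were called here, which makes its threshold stricter, and drew them from all probe sets. Its rates are therefore not those of the core genes, but a change of 0.25 in a single gene could go uncalled.

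**Figure D1:**
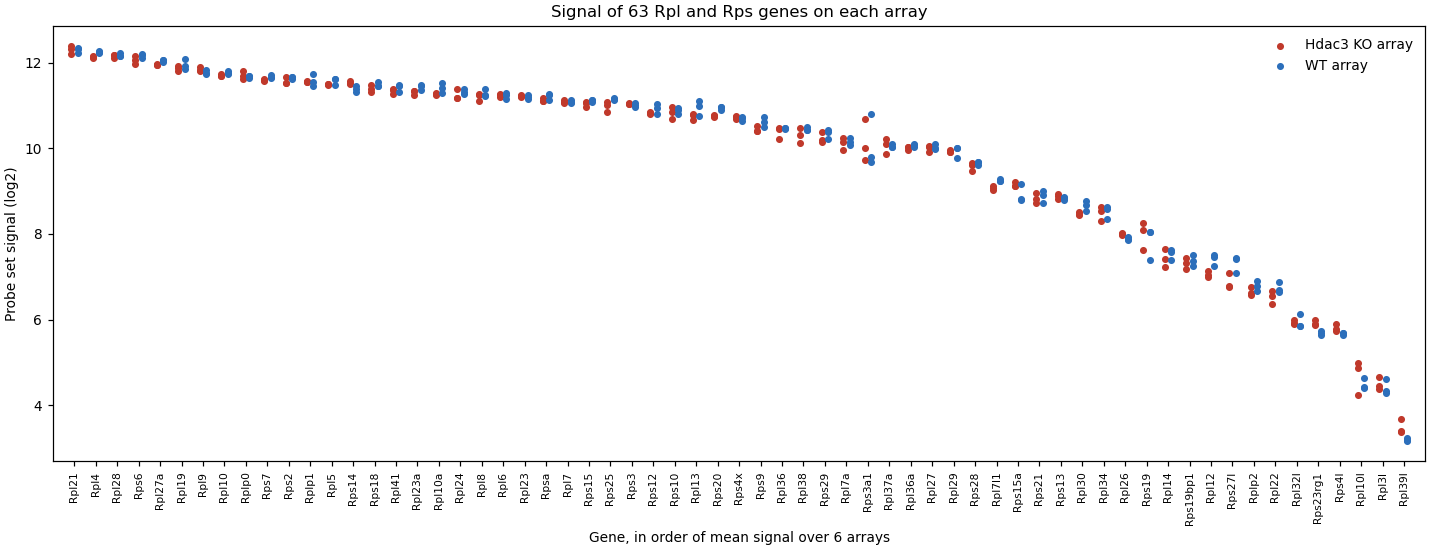
Log2 probe set signal of the 63 genes (x axis, in order of mean signal) on each of 3 Hdac3 KO arrays (red) and 3 WT arrays (blue), 1 point per array. Most genes lie above 10 with red and blue points side by side, and Rps3a1, Rps19 and Rpl10l show the widest scatter between arrays of a genotype.

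The core genes sat at the bright end of the signal range. Of the 54, 42 were among the brightest 5% of genes, above a mean log2 signal of 9.64. Signal depends on the probes as well as on the transcript, so its order between genes is not an order of transcript number. All 42 differed by less than 0.2 between genotypes, and their median difference was -0.08. The 955 other genes in the brightest 5% had a median of -0.02, and 72.9% of them differed by no more than 0.2. Of the 42 ribosomal protein genes 0 were called (limma) and 0 had an unadjusted p under 0.05, against 7.54% of the other bright genes called, 4.5% higher and 3.04% lower. KO and WT arrays were fully separated in 8 of the 42 (19.0%), 1 with KO above and 7 with KO below, against 40.5% of the other bright genes, 18.6% with KO above and 21.9% with KO below.

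The median was small and negative in each signal band above 8. At a mean log2 signal of 11 or more, the 27 members had a median difference of -0.08, with 19 below 0. The 171 other genes of that band had a median of 0.03, with 66 below 0. Between 10 and 11 the medians were -0.08 for 14 members and -0.02 for 467 other genes. Between 8 and 10 they were -0.03 for 8 members and -0.13 for 3432 other genes. Below 8 they were 0.04 for 14 members and 0.06 for 15805 other genes. The bright core genes were set against the other bright genes on each array. The array median of the 42 core genes exceeded that of the other bright genes by 0.97, 0.93 and 1.05 on KO arrays 1 to 3, against 0.92, 1.04 and 1.03 on WT arrays 1 to 3, and these groups overlap. The median difference of the core genes minus that of the other bright genes was -0.06. Leaving out 1 array gave values between -0.09 (WT array 1) and -0.03 (WT array 3, WT array 2 or KO array 2).

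**Figure D2:**
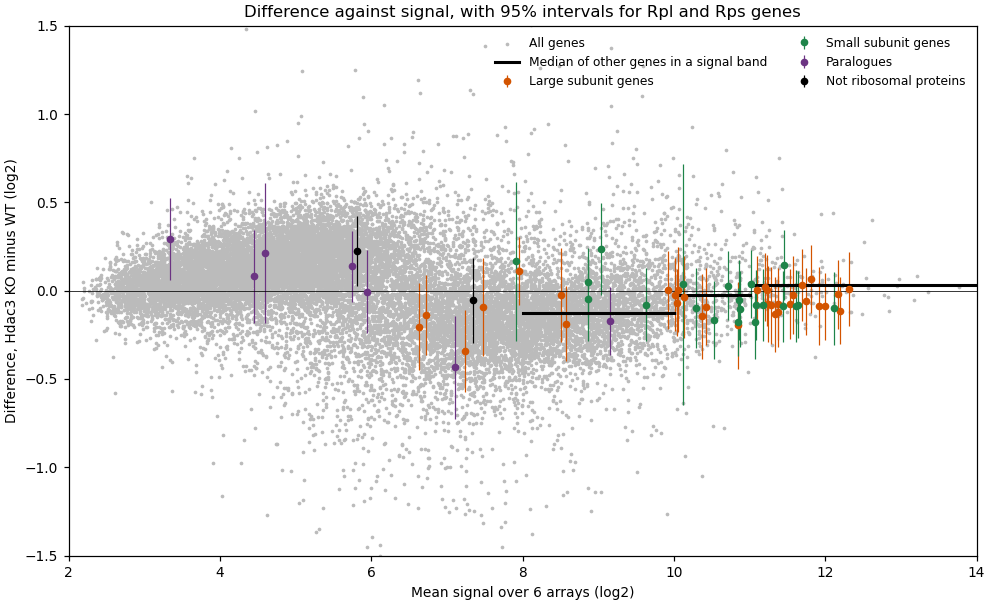
KO minus WT difference (log2) against mean signal over 6 arrays (log2) for all genes (grey) and for the 63 Rpl and Rps genes (coloured, bars are 95% intervals). Black bars are the medians of other genes in bands of signal (8 to 10, 10 to 11, 11 and above), 21 genes lie beyond the y axis, and the ribosomal protein genes above 10 form a narrow band just under 0.

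None of the 33 large subunit genes was called. Their differences ranged from -0.34 to 0.11 with a median of -0.07, and 24 were below 0. Without KO array 2 the median was -0.02. Rpl21 had the brightest probe set of all members, with log2 signals of 12.33, 12.21 and 12.40 on KO arrays against 12.33, 12.35 and 12.23 on WT arrays. Rpl4, whose protein lines the exit tunnel for the growing chain, had 12.13, 12.16 and 12.10 on KO arrays against 12.23, 12.25 and 12.26 on WT arrays. Its KO arrays were all below its WT arrays, yet the difference of -0.11 (SE 0.08, 95% interval -0.30 to 0.08) did not pass (limma adjusted p = 0.42). Rpl28 differed by -0.02 (95% interval -0.21 to 0.18).

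Genes of the large subunit with known roles outside it also showed small differences. Rpl5, whose protein binds MDM2 together with RPL11 when ribosome assembly fails, had signals of 11.47, 11.50 and 11.51 on KO arrays against 11.48, 11.61 and 11.61 on WT arrays. Its difference was -0.07 (95% interval -0.27 to 0.13). Rpl10, which is mutated in some human T cell leukaemias, differed by -0.06 and Rpl7 by 0.00, with limma adjusted p = 0.68 and 0.98. Rpl22, the gene with the known role in T cell development, had 6.66, 6.56 and 6.37 on KO arrays against 6.68, 6.65 and 6.87 on WT arrays. The groups touched at 6.66 and 6.65, and the difference of -0.20 (SE 0.11, 95% interval -0.45 to 0.04) did not pass (limma adjusted p = 0.28). Rpl13 differed by -0.19 (95% interval -0.44 to 0.05), and its KO and WT arrays overlapped.

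Rpl12, whose protein sits at the base of the stalk, had the most negative difference of the core genes. Its signals were 7.14, 7.004 and 7.05 on KO arrays against 7.46, 7.52 and 7.24 on WT arrays, with every KO array below every WT array. The difference was -0.34 (SE 0.10, 95% interval -0.57 to -0.11), a KO signal of 78.9% of WT, and it did not pass (limma adjusted p = 0.082). It passed without WT array 3 (-0.42, limma adjusted p = 0.037) and reached an adjusted p of 0.23 at most over all 16 alternatives. The stalk proteins themselves recruit the elongation factors. Rplp0 had 11.63, 11.81 and 11.68 on KO arrays against 11.64, 11.69 and 11.70 on WT arrays, a difference of 0.03, and Rplp1 differed by -0.02. Rplp2, read by a dimmer probe set, differed by -0.14 (95% interval -0.36 to 0.09). KO and WT arrays overlapped for all 3 stalk genes.

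The 21 small subunit genes differed by -0.18 to 0.24 with a median of -0.08, and 14 were below 0. Their array medians were 10.84, 10.77 and 10.80 on KO arrays against 10.89, 10.96 and 10.95 on WT arrays, without overlap, while those of the large subunit, 11.18, 11.10 and 11.24 against 11.14, 11.15 and 11.19, overlapped. Whether the subunits differ was not tested. When all probe sets of a gene were averaged in place of taking the brightest, the small subunit median difference was -0.03. Rps6, the substrate of the S6 kinases, had signals of 12.07, 11.97 and 12.16 on KO arrays against 12.10, 12.19 and 12.20 on WT arrays, a difference of -0.10 (95% interval -0.31 to 0.11). Rpsa, also known as the laminin receptor precursor, differed by -0.08 and Rps4x by 0.03. Neither passed (limma adjusted p = 0.60 and 0.86).

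Rps15a, a protein of the small subunit, had the largest positive difference of the core genes. Its signals were 9.22, 9.13 and 9.11 on KO arrays against 8.78, 9.16 and 8.82 on WT arrays. WT array 2 lay among the KO arrays, and the difference of 0.24 (SE 0.12) did not pass (limma adjusted p = 0.24). For 2 small subunit genes the arrays of a genotype scattered too widely to read a difference. Rps19, mutated in human Diamond-Blackfan anaemia, had 8.10, 8.25 and 7.63 on KO arrays against 7.39, 8.04 and 8.05 on WT arrays. Rps3a1 had 9.998, 10.68 and 9.73 on KO arrays against 9.68, 10.80 and 9.81 on WT arrays, so replicate 2 was high in both genotypes, and its 95% interval ran from -0.65 to 0.72.

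Several probe sets of a gene were compared to see how its difference varies with the probe set, not to measure the error between arrays. Probe sequences were not compared, so how independent the probe sets of a gene are is not known. The 63 genes had 219 single-symbol probe sets, 207 of them with distinct values, and 38 genes had more than 1 distinct probe set. Probe sets of 1 gene read the same RNA samples, so they are not replicates. The differences of 1 gene's probe sets spanned a median range of 0.06, less than the median SE of 0.09 of a single core difference, and 27 of the 38 genes kept 1 sign in all. All 13 probe sets of Rpl23a, 11 of them distinct, lay between -0.17 and -0.11 and all 8 of Rpl9 between 0.04 and 0.11. None of these was called.

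Rps25, whose protein is needed for initiation at certain viral internal entry sites, had the most negative median over its probe sets among genes with several probe sets. Its 6 probe sets differed by -0.36 to -0.18, the brightest of them the least. That probe set had signals of 11.01, 10.85 and 11.08 on KO arrays against 11.15, 11.13 and 11.18 on WT arrays. The dimmest had 9.41, 9.27 and 9.54 on KO arrays against 9.69, 9.83 and 9.78 on WT arrays, a difference of -0.36 (SE 0.10). In all 6 probe sets each KO array lay below each WT array. Even the dimmest did not pass (limma adjusted p = 0.068), and Rps25, Rps14, Rpl9, Rpl23a, Rps3a1 and Rps4l were singled out after their values were seen. Rps14, whose loss underlies the anaemia of human 5q- syndrome, had the most positive median among core genes with several probe sets, with 11.57, 11.50 and 11.53 on KO arrays against 11.39, 11.31 and 11.46 on WT arrays for the brighter of its 2 probe sets. Those differed by 0.15 and 0.24 (limma adjusted p = 0.33 and 0.23).

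**Figure D3:**
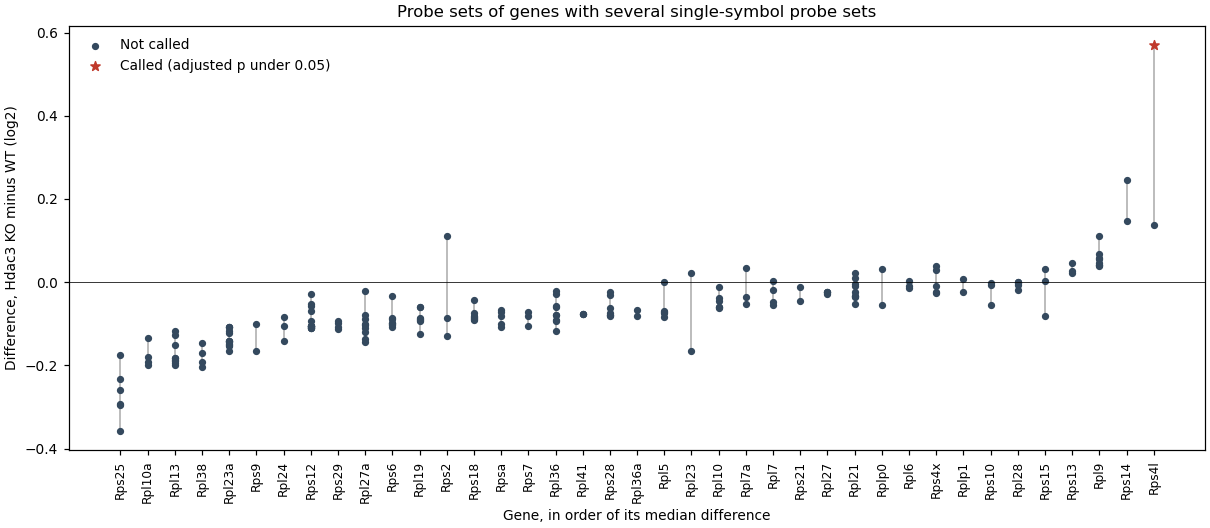
KO minus WT difference (log2, y axis) of every single-symbol probe set of the 39 genes that have several, 1 point per probe set, with grey lines joining a gene's lowest and highest. The points of most genes lie close together, those of Rps25 all lie under -0.17, and a single probe set, of Rps4l, was called (star).

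The paralogues were dimmer, and most vary between tissues. Their 7 differences had a median of 0.08 and ranged from -0.43 to 0.29. Rps27l, a paralogue of Rps27 that p53 induces, had signals of 7.09, 6.76 and 6.80 on KO arrays against 7.43, 7.44 and 7.09 on WT arrays. WT array 3 met KO array 1, and the difference of -0.43 (SE 0.13, 95% interval -0.73 to -0.14), the most negative of all 63, did not pass (limma adjusted p = 0.081). It passed without WT array 3 (-0.55, limma adjusted p = 0.034) and had an adjusted p of up to 0.23 over 16 alternatives. Rpl7l1, a nucleolar relative of Rpl7, had 9.13, 9.06 and 9.03 on KO arrays against 9.27, 9.23 and 9.23 on WT arrays, a difference of -0.17 (limma adjusted p = 0.25).

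The 3 dimmest members were Rpl39l and Rpl10l, known from testis, and Rpl3l, known from muscle. Rpl39l had the lowest signals, 3.40, 3.67 and 3.38 on KO arrays against 3.18, 3.16 and 3.24 on WT arrays, and the largest positive difference, 0.29 (SE 0.10, limma adjusted p = 0.12). Rpl10l differed by 0.22 (95% interval -0.18 to 0.61) and Rpl3l by 0.08. No background level is known for these values, so whether the dimmest probe sets detected a transcript cannot be told. Rps23rg1 differed by 0.22 (limma adjusted p = 0.16). The single called probe set was the dimmer of the 2 of Rps4l, a relative of Rps4x, with 5.59, 5.78 and 5.78 on KO arrays against 4.96, 5.07 and 5.41 on WT arrays. Its difference of 0.57 (SE 0.13, limma adjusted p = 0.035) was not matched by the brighter probe set, at 0.14 (limma adjusted p = 0.35). It was lost in 4 of the 6 fits with 1 array left out, those without WT array 1 or 2 or KO array 2 or 3 (limma adjusted p up to 0.12).

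Probe sets of several symbols were counted without naming genes. Of 239 such probe sets with at least 1 ribosomal protein symbol, 0 were called (limma), 5 had an unadjusted p under 0.05, all with negative differences, and the median difference was -0.04. The 2 pseudogenes differed by -0.14 and 0.13 and neither passed. Fau, whose protein carries the ribosomal protein S30, differed by 0.08 (limma adjusted p = 0.72).

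Lists of other genes of protein synthesis and of its regulators held 17 called genes among 271, 2 of them higher. The regulators are the MYC network, mTORC1 and p53 lists. This share of called genes is near the 5.79% called among all probe sets. Of 83 ribosome biogenesis genes, 3 fell and 0 rose, with a median of -0.19 and 75 below 0. An unadjusted p under 0.05 with a negative difference was found for 32 of the 83, against 897 of 3432 other genes of signal 8 to 10 and 1903 of 15805 below 8. The median signal of the list, 7.98, lies at the border of these bands, whose other genes had medians of -0.13 and 0.06. Ltv1, which matures the small subunit, fell by 0.50, Rcl1, which acts on ribosomal RNA precursors, by 0.50, and Dkc1, the pseudouridine synthase, by 0.45 (limma adjusted p = 0.015, 0.044 and 0.048). Of 77 mitochondrial ribosomal protein genes, 5 fell and 0 rose, with a median of -0.12. Mrpl52 fell by 0.58, Mrpl48 by 0.55, Mrps6 by 0.47 and Mrpl36 by 0.41. Of 34 initiation factor genes, Eif4a2, an RNA helicase of initiation, rose by 0.54 and none fell, with a median of -0.11. Of 14 elongation and termination genes, Eef2k, the kinase that inactivates elongation factor eEF2, fell by 0.52 and none rose. Among 18 other TOP genes Eif4a2 rose and Vim, the filament protein vimentin, fell by 1.25. None of 15 genes of RNA polymerase I transcription passed (5 at an unadjusted p under 0.05), with Ubtf at -0.33 (limma adjusted p = 0.052) and Polr1b at -0.42 (limma adjusted p = 0.10). Ubtf passed in 4 of 16 alternatives and Polr1b in 2, with array weights and without WT array 3. None of 6 p53 and MDM2 checkpoint genes passed either (1 at an unadjusted p under 0.05), with Mdm4 at 0.28 (limma adjusted p = 0.11) and Pmaip1 at 0.27 (limma adjusted p = 0.25). Mdm4 passed in 2 of 16 alternatives.

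Upstream regulators had mostly negative differences, below 0 in 11 of 12 genes of the MYC network and 17 of 24 of the mTORC1 list. Among other genes the share below 0 was 76.1% at a signal of 8 to 10 and 39.2% below 8. Myc, the transcription factor that drives ribosome production in many cells, had signals of 6.84, 6.18 and 6.81 on KO arrays against 7.95, 7.91 and 7.76 on WT arrays, and fell by 1.26 (SE 0.17, limma adjusted p = 0.0035). It was called in all 16 alternatives. Mlxip, of the same network, fell by 0.37, and 10 others of the 12 did not pass. Of 24 genes from mTORC1 to the S6 kinases, 3 fell and 1 rose, where 5.79% of all probe sets were called. Sesn3, an inhibitor of mTORC1, had 6.78, 6.63 and 6.91 on KO arrays against 7.83, 7.53 and 7.82 on WT arrays and fell by 0.95 (SE 0.12, limma adjusted p = 0.00285). Rptor, the scaffold of mTORC1, fell by 0.57, and Rhebl1, a relative of the activating GTPase, rose by 0.49. Rps6ka3, an S6 kinase gene by name, fell by 0.48. Rps6kb2 differed by 0.08 (limma adjusted p = 0.60), and Rps6kb1 was not among the genes measured. Myc, Sesn3, Vim and Mrpl52 passed in each fit with 1 array left out. The calls of Mlxip, Mrps6 and Mrpl36 were lost in every such fit. The others were lost in 3 to 5 of the 6: without KO array 2 or 3 or WT array 1 or 2 for Ltv1, Rptor and Eef2k, without these and KO array 1 for Rcl1, Dkc1 and Rps6ka3, without KO array 1 or 2 or WT array 1 or 2 for Eif4a2, and without KO array 2 or 3 and 1 WT array for Mrpl48 (WT array 1) and Rhebl1 (WT array 2), with limma adjusted p up to 0.15. Under both cyclic loess and quantile normalization, Rcl1, Dkc1, Mrps6, Mrpl36, Eef2k, Mlxip, Rps6ka3 and Rhebl1 did not pass (limma adjusted p up to 0.19), and the difference of Mlxip was -0.24 and -0.23.

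**Figure D4:**
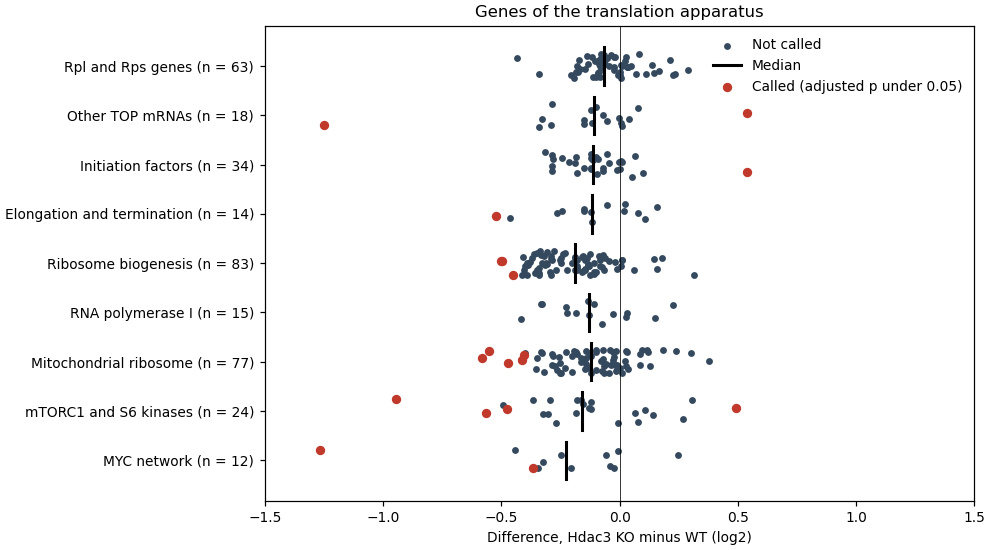
KO minus WT differences (log2, x axis) of the 63 Rpl and Rps genes and of 8 other lists (rows, with the number of genes measured), 1 point per gene, red where called, with a black bar at each median. The Rpl and Rps genes have the median closest to 0, at -0.07, and hold no called gene. The lists differ in median signal, from 7.51 to 10.71, so their medians are not compared at like brightness.

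Most marker genes of other cells were dim, with list medians of 4.27 to 5.23 in mean log2 signal. The 14 neutrophil markers had a median difference of 0.42 with 14 above 0, and 0 of 14 were called. The 11 macrophage and monocyte, 8 dendritic cell, 9 B cell and 9 NK and innate-like T cell markers had medians of 0.15, 0.14, 0.04 and 0.05, with none called. The 6 erythroid markers had a median of 0.25 with 6 above 0, and Klf1 rose. The 12 thymic stroma markers had a median of 0.17 with 10 above 0, and Epcam fell. Of the 15805 genes outside the 63 with a mean log2 signal below 8, 9606 were above 0, with a median of 0.06. Of 15 DP markers Themis rose and Cd1d1 and Cd247 fell. The part of other cells in the differences above was not tested. Without KO array 2, on which the neutrophil markers were high, the median difference of the core genes was -0.05. In that fit 0 of the 63 ribosomal protein genes were called, but calls over all probe sets also dropped, from 1355 to 474.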

How the data were processed

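The authors deposited 1 column of log2 signal per array for 28853 probe sets. The log2 scale follows from the range of the values. The sources used here do not say how background, normalization and probe summary were handled. Gene symbols came from the array platform's annotation, and all 63 members matched the RefSeq genes of GRCm38.p6 by Entrez identifier with no symbol changed.

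Differences of 23410 annotated probe sets were fitted in limma 3.58.1 (lmFit and eBayes, R 4.3.3) as KO minus WT, with Benjamini-Hochberg adjustment over all of them and a threshold of 0.05 (two-sided). No filter on low values was used. With 3 arrays a genotype, the smallest exact permutation p is 0.1, so no such test was run. Groups of genes are described by counts and medians, without a test. Replicate numbers were taken from the titles. They did not pair the arrays.

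Genes named are Hdac3, the 3 brightest and 3 dimmest members, the 4 with the largest difference each way, a list of members with known roles, and up to 4 called genes with the largest changes of every other list (if none, the 2 of lowest p). Other names were chosen after their values were seen. Members and lists were chosen with earlier results of these data known. The fit was tested on simulated data. The alternatives tried are given in the closing section. The number of arrays limits the precision.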

Additional observations from a re-analysis of the deposited data

How the results depend on the processing

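No alternative called a ribosomal protein gene higher. Called lower were 2 genes, Rpl12 and Rps27l, with array weights, with median centring and without WT array 3, and 1, Rpl12, when dim probe sets were left out (59 of 63 genes tested). Over fits with 1 array left out, 0 to 2 were called lower. Median centring moved the median of all probe sets to -0.08, and with it the median differences to -0.17 for all 63 genes, -0.18 for core genes, -0.17 for the large and -0.18 for the small subunit. The large subunit median ranged from -0.09 to -0.02 with 1 array left out. The small subunit median was -0.038 after cyclic loess normalization, -0.0345 when probe sets of a gene were averaged, and -0.10 to -0.05 with 1 array left out. The gap to other bright genes was -0.02 against the brightest 10% of genes. All probe sets called were 1355, 2285 with array weights, 2060 after median centring (9.56% higher, against 30.2%) and 474 to 1946 with 1 array left out. The other lists, of protein synthesis and its regulators, held 271 genes. Of these, 17 were called, 40 with array weights, 39 without dim probe sets and 36 with an intensity trend and robust prior. The count was 45 after median centring, 11 after quantile normalization and 4 to 34 with 1 array left out. Causes were not tested. With the replicate block, 0 members and 1162 probe sets were called; deviations of same-numbered arrays correlated at 0.25, -0.07 and -0.03.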
